A study of Homo sapiens with 12 samples.

Results

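Prostaglandin E2 is made from arachidonic acid in a short chain of enzymes, and 9 genes of that chain and of its receptors are described here, of the 58735 genes counted. Cytosolic phospholipase A2 (PLA2G4A) frees arachidonic acid from membranes. The cyclooxygenases PTGS1 and PTGS2 turn it into prostaglandin H2, and the terminal synthases PTGES, PTGES2 and PTGES3 turn that into prostaglandin E2. HPGD starts its breakdown, and PTGER2 and PTGER4 are the receptors EP2 and EP4, which raise cyclic AMP. PTGS2 is the inducible cyclooxygenase and is known as the main target of non-steroidal anti-inflammatory drugs in inflamed tissue and in many carcinomas. The genes were taken by name. They were chosen because of the levels of PTGS2 in the siControl normoxia libraries, so every comparison with those libraries is given as a description and carries no test.

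The cells were BCPAP, an established human line from a papillary thyroid carcinoma, transfected with scrambled siRNA (siControl) or with siRNA against the hydrogen peroxide producing oxidase NOX4 (siNOX4). Each was then kept at 20% oxygen (normoxia) or 1% oxygen (hypoxia), which gave 4 groups of 3 libraries, and the labels describe the 3 as separate transfections. Every group is the same line, so replicates measure the spread between transfections of 1 line.

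NOX4 itself was counted 6 to 13 times per library in siControl normoxia and 1 to 5 times in siNOX4 normoxia, and 8 to 17 against 3 to 4 times in hypoxia. The libraries of the 2 siRNAs did not overlap at either oxygen level, although the counts were low throughout. Summed counts per library ranged from 16559386 to 21282835. Of thyroid markers the transcription factors were present (PAX8 at 382 to 1735 CPM, which are counts scaled to library size with TMM factors, and NKX2-1 at 43.3 to 165 CPM). TG, the thyroglobulin from which thyroid hormone is made, stayed at or under 0.158 CPM, and the epithelial cadherin CDH1 at or under 0.257 CPM. The epithelial markers KRT8 (171 to 441 CPM), KRT18 (169 to 281 CPM) and CLDN4 (172 to 493 CPM) were present. CLDN7 was at 10.2 to 26.7 CPM, EPCAM at 2.36 to 6.42 CPM and KRT19 at or under 0.363 CPM. siControl normoxia replicates 1 and 3 stood apart from replicate 2 and from the other groups in many genes. Both lay outside the range of the other 10 libraries for 5824 of 17277 genes, or 33.7%.

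Promoter sequence is shown for 3 genes, because PTGS2 and PLA2G4A were both highest in those libraries and are neighbours on chromosome 1, and because PTGES changed most with oxygen. Each line holds the 250 bases before the RefSeq start on GRCh38.p14, 5′ to 3′ on the gene's own strand, and position −1 is the base next to the start. Capitals mark matches to the motifs searched on both strands.
PTGS2: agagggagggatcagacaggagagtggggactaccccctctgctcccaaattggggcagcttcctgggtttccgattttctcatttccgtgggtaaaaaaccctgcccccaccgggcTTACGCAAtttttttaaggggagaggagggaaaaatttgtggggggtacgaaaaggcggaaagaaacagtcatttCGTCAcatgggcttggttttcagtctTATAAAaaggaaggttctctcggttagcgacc
PLA2G4A: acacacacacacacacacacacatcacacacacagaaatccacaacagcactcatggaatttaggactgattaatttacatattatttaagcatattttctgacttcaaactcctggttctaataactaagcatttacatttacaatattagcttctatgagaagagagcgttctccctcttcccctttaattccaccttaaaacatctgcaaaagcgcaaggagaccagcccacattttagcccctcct
PTGES: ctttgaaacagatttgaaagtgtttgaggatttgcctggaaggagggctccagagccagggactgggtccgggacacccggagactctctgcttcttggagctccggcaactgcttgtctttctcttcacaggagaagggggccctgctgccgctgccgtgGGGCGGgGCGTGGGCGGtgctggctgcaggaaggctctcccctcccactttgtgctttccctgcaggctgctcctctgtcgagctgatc

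The PTGS2 window (chr1:186680424-186680673, minus strand) held a TATA box (TATAAA) whose first base was at −32, as did 10.8% of 34788 windows of the same length. It also held a cyclic AMP response half-site (TGACG, here on the opposite strand) at −58, as did 21.2% of windows, and a C/EBP match (TTNNGNAA, read on both strands at 1 place) at −133, as did 33.2%. The PTGES window (chr9:129753043-129753292, minus strand) held 2 GC boxes (GGGCGG, 42.6% of windows) at −89 and −78. An EGR match (GCGNGGGCG, 8.41%) and the letters GCGTG (32.2%), one form of the core that hypoxia-inducible factors bind, both began at −82. These overlap each other and the second GC box. The PLA2G4A window (chr1:186828699-186828948, plus strand) matched none of the motifs. Those also searched were ACGTG (18.5% of windows), the NF-kB pattern GGGRNNYYCC (9.95%, with R for A or G and Y for C or T) and the tonicity element TonE (4.19%). None of these exact patterns was found in the PTGS2 and PTGES windows either. The letters GGGACTACCC in the PTGS2 window differ from the NF-kB pattern by a letter and were not counted, so an NF-kB site there is not excluded. A match or its absence describes only these letters in this window. All 9 genes had a window, and 6 of them had only 1.

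Hypoxia was tested in siNOX4 cells, without the siControl normoxia libraries whose PTGS2 levels chose the genes, although earlier results of all groups were known when the genes were listed. PTGES was lower by 17-fold and was the largest change of the 8 genes tested, while PTGS2 rose 1.94-fold from a low level. Of the 8 genes, 2 rose (PTGS2 and PTGES2) and 6 fell (PLA2G4A, PTGS1, PTGES, PTGES3, PTGER2 and PTGER4). In the same comparison 35.9% of the 16907 tested genes passed as higher and 34.6% as lower, so being called is common here. PLA2G4A passed the filter on low counts only through siNOX4 normoxia, so the filter itself favoured a fall and its call carries no weight. Without PLA2G4A 2 genes rose and 5 fell, with a median log2 change of −1.18 against 0.04 over all genes. HPGD was too low to be tested. For siNOX4 against siControl in hypoxia none of the 8 was called, in a comparison that called 17 of 16907 genes, or 0.101%. Both comparisons use the siNOX4 hypoxia libraries, so they are not independent.

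**Figure D1:**
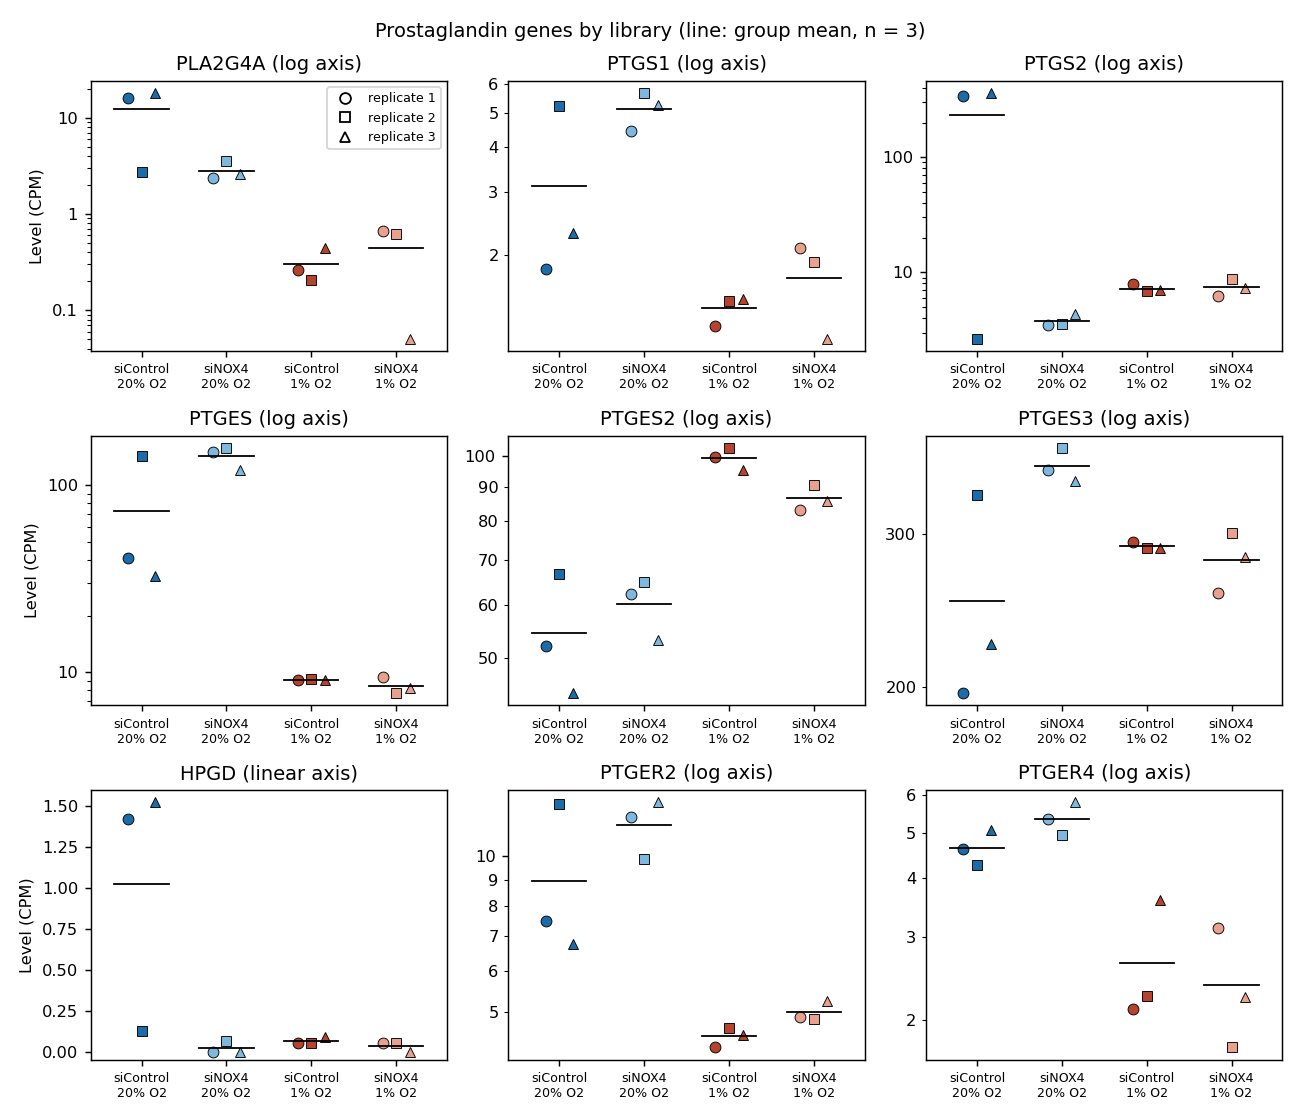
Level of each gene in every library in CPM, on a log axis except for HPGD, with blue for 20% oxygen, red for 1% oxygen, marker shape for the replicate number and a line at the mean of 3 libraries. siControl normoxia replicates 1 and 3 part from replicate 2 in 8 of the 9 panels, and PTGES is under 10 CPM in all 6 hypoxia libraries.

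At the first step, PLA2G4A (chromosome 1, 186828953 to 186988981, plus strand, GRCh38 with GENCODE 29 as for all positions of genes here) stood at 16, 2.72 and 18 CPM in siControl normoxia replicates 1, 2 and 3. It was at 2.35, 3.53 and 2.6 CPM in siNOX4 normoxia, at 0.264, 0.205 and 0.443 CPM in siControl hypoxia and at 0.667, 0.618 and 0.0509 CPM in siNOX4 hypoxia. Replicate 2 lay within the siNOX4 normoxia libraries, and replicates 1 and 3 lay above all others. The hypoxia libraries held 1 to 13 reads each, so their order is not detectable at this depth. In siNOX4 cells PLA2G4A was 6.32-fold lower in hypoxia (log2 fold change −2.66, SE 0.44, adjusted p = 2.2e-05). That direction was favoured by the filter, as stated above, so the call carries no weight. Against siControl hypoxia the siNOX4 difference was 0.51 on the log2 scale, with a 95% interval from −0.71 to 1.74. As in every bulk sample, fewer cells making an RNA and less of it per cell cannot be told apart.

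PTGS1, the cyclooxygenase that most tissues make at a steady level (chromosome 9, 122370530 to 122395703, plus strand), was at 1.83, 5.2 and 2.31 CPM in siControl normoxia. It was at 4.45, 5.66 and 5.26 CPM in siNOX4 normoxia, at 1.27, 1.49 and 1.51 CPM in siControl hypoxia and at 2.1, 1.91 and 1.17 CPM in siNOX4 hypoxia. Replicate 2 again fell inside the siNOX4 normoxia range. Replicates 1 and 3 were below it, near the hypoxia libraries, which is the opposite side from PTGS2 in the same libraries. In siNOX4 cells PTGS1 fell by 1.58 in hypoxia (log2, SE 0.23, adjusted p = 4.7e-06). The siNOX4 difference in hypoxia was 0.28 (95% interval −0.26 to 0.82, adjusted p = 0.744).

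PTGS2 (chromosome 1, 186671791 to 186680427, minus strand, 148525 bases from PLA2G4A and transcribed away from it) was at 337, 2.66 and 359 CPM in siControl normoxia. It was at 3.5, 3.53 and 4.35 CPM in siNOX4 normoxia, at 7.85, 6.87 and 6.96 CPM in siControl hypoxia and at 6.26, 8.71 and 7.33 CPM in siNOX4 hypoxia. Replicates 1 and 3 were 131-fold above replicate 2, which was the lowest of all 12 libraries. The group means were 233 ± 200 CPM (SD, n = 3) in siControl normoxia, 3.79 ± 0.485 CPM in siNOX4 normoxia, 7.23 ± 0.546 CPM in siControl hypoxia and 7.43 ± 1.22 CPM in siNOX4 hypoxia, so the first mean describes none of its own libraries.

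Among the other 9 libraries PTGS2 differed with oxygen, and no difference between the siRNAs was called. In siNOX4 cells it rose by 0.95 in hypoxia (log2, SE 0.16, adjusted p = 3.3e-05), and the 3 hypoxia libraries lay above the 3 normoxia libraries. When siControl normoxia was added to the fit and its spread shared, the same difference of 0.97 had an adjusted p of 0.468. In hypoxia the siNOX4 difference was 0.04 (95% interval −0.26 to 0.35, adjusted p = 0.951). The direction of both comparisons with siControl normoxia turned with replicates 1 and 3. The log2 ratio of siNOX4 to siControl means in normoxia was −5.94, and it was 0.51 against replicate 2 alone. The log2 ratio of hypoxia to normoxia in siControl cells was −5.01, and it was 1.44 against replicate 2 alone. PACERR, an RNA that starts beside PTGS2 on the other strand and is named after its counts were seen, was counted 12, 0 and 14 times in siControl normoxia and 0 to 9 times elsewhere. The kit is taken as unstranded, so its reads and those of PTGS2 cannot be told apart where they overlap.

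PTGES, the inducible membrane synthase that is coupled to PTGS2 (chromosome 9, 129738331 to 129753047, minus strand), was at 40.7, 144 and 32.8 CPM in siControl normoxia. It was at 150, 159 and 121 CPM in siNOX4 normoxia, at 9.07, 9.17 and 9.04 CPM in siControl hypoxia and at 9.44, 7.73 and 8.25 CPM in siNOX4 hypoxia. Replicate 2 lay inside the siNOX4 normoxia range, while replicates 1 and 3 lay between the hypoxia libraries and the others. In siNOX4 cells PTGES had a mean of 143 ± 19.6 CPM (SD, n = 3) in normoxia and of 8.47 ± 0.881 CPM in hypoxia, a fall of 17-fold (log2 −4.09, SE 0.10, adjusted p = 1.6e-16). The authors' deposited table has the same contrast at 4.09, as normoxia over hypoxia, with adjusted p = 8.4e-243. In siControl cells the mean was 72.6 ± 62.2 CPM in normoxia and 9.09 ± 0.0714 CPM in hypoxia, and the log2 ratio of the hypoxia mean to replicate 2 alone was −3.99. The siNOX4 difference in hypoxia was −0.10 (95% interval −0.36 to 0.15, adjusted p = 0.817). PTGES and PTGS2 therefore moved in opposite directions with hypoxia in siNOX4 cells, and were also on opposite sides of replicate 2 in siControl normoxia replicates 1 and 3.

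PTGES2, a second membrane synthase (chromosome 9, 128120693 to 128128462, minus strand), was at 52, 66.8 and 44.3 CPM in siControl normoxia and at 62.2, 65 and 53.2 CPM in siNOX4 normoxia. It was at 99.7, 103 and 95.3 CPM in siControl hypoxia and at 83.2, 90.6 and 85.8 CPM in siNOX4 hypoxia. All 6 hypoxia libraries lay above all 6 normoxia libraries. In siNOX4 cells it rose by 0.51 (log2, SE 0.07, adjusted p = 3.4e-06). It was the one gene of these with an unadjusted p under 0.05 for siNOX4 in hypoxia, where the libraries of the siRNAs did not overlap. That difference of −0.20 on the log2 scale (95% interval −0.35 to −0.05) did not pass over all genes in edgeR (adjusted p = 0.34). Its antisense partner PTGES2-AS1, also named after its values were seen, rose in hypoxia (0.246 CPM in normoxia, 0.958 CPM in hypoxia, log2 1.88, SE 0.54, adjusted p = 0.00419), and the reads of the pair cannot be told apart where they overlap.

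PTGES3, the cytosolic synthase that is also the HSP90 co-chaperone p23 (chromosome 12, 56663341 to 56688408, minus strand), was at 197, 333 and 224 CPM in siControl normoxia and at 355, 377 and 345 CPM in siNOX4 normoxia. It was at 294, 289 and 289 CPM in siControl hypoxia and at 257, 301 and 282 CPM in siNOX4 hypoxia. Replicates 1 and 3 were the lowest of all 12 libraries. In siNOX4 cells it fell by 0.37 (log2, SE 0.06, adjusted p = 4.3e-05), and with siControl normoxia in the fit the difference of −0.36 no longer passed (adjusted p = 0.0618). The siNOX4 difference in hypoxia was −0.05 (95% interval −0.19 to 0.08). PTGES3 has processed copies in the genome that can share its reads. PTGES3P1, one of them, fell beside it from 5.05 to 2.9 CPM (log2 −0.81, adjusted p = 5.3e-04).

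HPGD, the dehydrogenase that inactivates prostaglandin E2 (minus strand of chromosome 4, 174490177 to 174523154), had 24, 2 and 25 reads in siControl normoxia. It had 0, 1 and 0 reads in siNOX4 normoxia, 1, 1 and 2 reads in siControl hypoxia and 1, 1 and 0 reads in siNOX4 hypoxia. Only replicates 1 and 3 held more than 2 reads, so no effect of oxygen or siRNA is detectable at this depth in the other libraries.

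Both receptors were lower in hypoxia. PTGER2 (EP2, chromosome 14, 52314305 to 52328606, plus strand) was at 7.5, 12.6 and 6.76 CPM in siControl normoxia, 11.9, 9.85 and 12.7 CPM in siNOX4 normoxia, 4.27, 4.66 and 4.52 CPM in siControl hypoxia and 4.88, 4.84 and 5.25 CPM in siNOX4 hypoxia. PTGER4 (EP4, chromosome 5, 40679498 to 40693735, plus strand) was at 4.61, 4.27 and 5.06 CPM, 5.34, 4.93 and 5.8 CPM, 2.11, 2.25 and 3.59 CPM, and 3.13, 1.75 and 2.24 CPM in the same order of groups. For both genes all hypoxia libraries lay below all normoxia libraries. In siNOX4 cells PTGER2 fell by 1.22 (log2, SE 0.14, adjusted p = 1.5e-07) and PTGER4 by 1.18 (SE 0.23, adjusted p = 1.4e-04). The siNOX4 differences in hypoxia were 0.15 (95% interval −0.15 to 0.46) for PTGER2, whose siNOX4 libraries all lay above the siControl libraries (adjusted p = 0.753), and −0.17 (−0.68 to 0.34) for PTGER4. The siControl normoxia libraries of PTGER4 were the closest together of the 9 genes, with replicates 1 and 3 at 1.13 times the level of replicate 2.

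**Figure D2:**
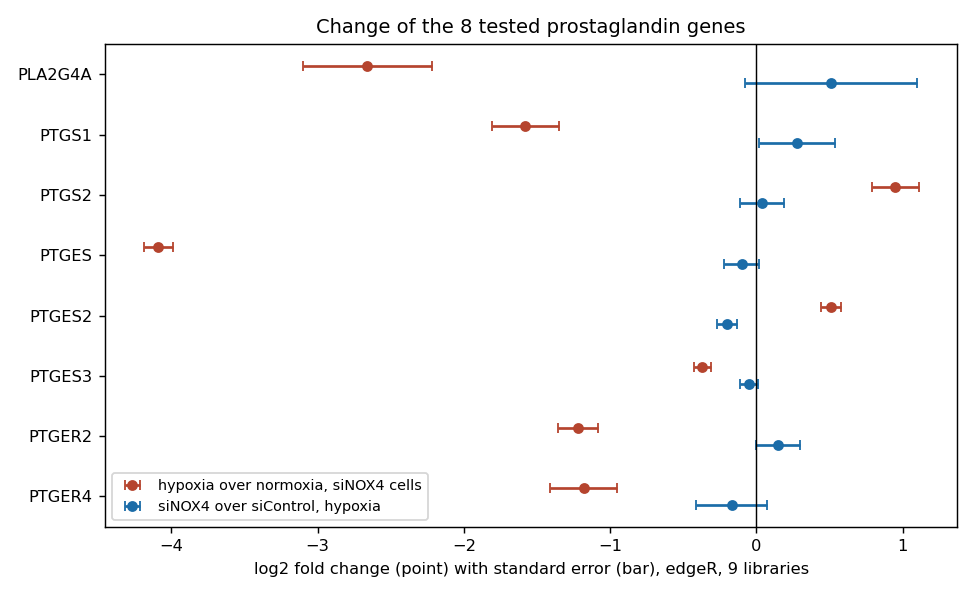
Log2 fold change of the 8 tested genes with its standard error, from edgeR on 9 libraries, in red for hypoxia over normoxia in siNOX4 cells and in blue for siNOX4 over siControl in hypoxia. The red points run from −4.09 for PTGES to 0.95 for PTGS2, and the blue points lie between −0.20 and 0.51.

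Within siControl normoxia, the 9 genes did not share 1 direction. Against the other 10 libraries, replicates 1 and 3 were both above for PTGS2, PLA2G4A and HPGD and both below for PTGES2 and PTGES3, or 5 of 9 genes, where the share over all genes was the 33.7% given above. Nothing is read from that count, since PTGS2 in these libraries chose the genes. Replicates 1 and 3 were 6.24-fold above replicate 2 for PLA2G4A and 11.9-fold for HPGD, while replicate 2 was 3.92-fold above them for PTGES, 2.51-fold for PTGS1, 1.77-fold for PTGER2 and 1.58-fold for PTGES3. Replicate 2 lay inside the range of the siNOX4 normoxia libraries for PLA2G4A, PTGS1, PTGES and PTGER2. Over all 3 siControl libraries, siNOX4 normoxia did not overlap siControl normoxia for 2 of the 9 genes (PTGES3 higher, HPGD lower), against 22.4% of 17277 genes past the low-count filter. In siControl cells, hypoxia and normoxia did not overlap for 7 of the 9 (PTGES2 higher, and PLA2G4A, PTGS1, PTGES, HPGD, PTGER2 and PTGER4 lower), against 56.9% of those 17277 genes. Both HPGD entries hinge on replicate 2, with 2 reads against 0 to 1 in siNOX4 normoxia and 1 to 2 in siControl hypoxia. No difference is read from them.

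**Figure D3:**
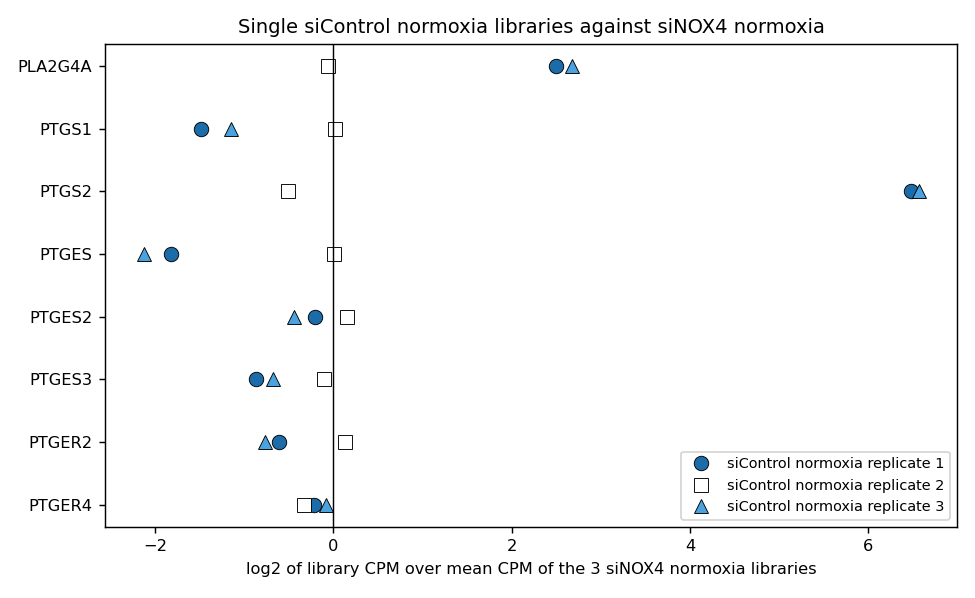
Log2 of the CPM of each siControl normoxia library over the mean CPM of the 3 siNOX4 normoxia libraries, for 8 genes (HPGD, at 0 in libraries of the reference, is left out). Replicate 2 (open squares) lies closer to 0 than replicates 1 and 3 in every row but that of PTGER4, and replicates 1 and 3 (filled) lie far to the right for PTGS2 and PLA2G4A and to the left for PTGES and PTGS1.

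Markers of thyroid and of other cell types differed in the same libraries. The summed level of 7 leukocyte markers was 9.03 and 7.8 CPM in siControl normoxia replicates 1 and 3, 1.42 CPM in replicate 2 and 1.42 to 6.42 CPM over the 10 other libraries. That of 9 fibroblast and mural markers was 30.6 and 28.4 CPM, against 9.17 to 17 CPM in the other 10. That of 6 endothelial markers was 45.6 and 42 CPM, against 23.1 to 41.9 CPM, and its members went opposite ways. PECAM1 averaged 18.5 CPM in siControl normoxia and 2.7 CPM in siNOX4 normoxia, and TIE1 averaged 17.8 and 35.2 CPM. Members of the fibroblast and mural list went opposite ways too. COL3A1 averaged 7.32 CPM in siControl normoxia and 0 CPM in siNOX4 normoxia, and COL1A1, COL1A2, PDGFRB and LUM were also higher in siControl normoxia. PDGFRA, DCN, RGS5 and ACTA2 averaged lower there than in siNOX4 normoxia. The summed level of 9 thyroid markers, most of it PAX8, was 1826 and 1732 CPM in replicates 1 and 3, against 625 to 762 CPM in the other 10. Thyroid markers also went opposite ways. PAX8 averaged 1303 CPM in siControl normoxia and 509 CPM in siNOX4 normoxia. NKX2-1 (75.5 and 135 CPM), FOXE1 (25.7 and 31.4 CPM) and HHEX (30.8 and 45.3 CPM) averaged lower in siControl normoxia. The summed level of 4 platelet markers was 0.709 and 0.366 CPM, against 0.399 to 1.46 CPM. The endothelial CDH5 and VWF stayed at or under 0.305 and 0.67 CPM in every library. The part of other cells in the PTGS2 levels was not tested.

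Levels between genes are compared per gene length, in the authors' FPKM. PTGES3 had the highest mean in all 4 groups. In siNOX4 normoxia PTGES3 (105 ± 4.81 FPKM, SD, n = 3) and PTGES (75.3 ± 10.3) led, followed by PTGES2 (19.7 ± 2.03), PTGER2 (4.63 ± 0.595) and PTGER4 (1.35 ± 0.11). PLA2G4A (0.979 ± 0.213), PTGS1 (0.881 ± 0.104) and PTGS2 (0.717 ± 0.0907) came next, with overlapping ranges of mean ± SD between neighbours in this order, and HPGD was last. In siNOX4 hypoxia PTGES2 (28 ± 1.18) stood above PTGES (4.4 ± 0.465), and PTGS2 (1.39 ± 0.227) stood above PTGS1 (0.294 ± 0.084). PTGS2 took second place only in siControl normoxia, with a mean of 43.5 ± 37.3 FPKM that comes from replicates 1 and 3.

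A further 139 genes around this chain were in the table, on lists chosen with earlier results of these data known. Of 115 tested for hypoxia in siNOX4 cells, 31 rose (27% against 35.9% of all genes), 55 fell (47.8% against 34.6%) and 29 were not called. The shares over all genes are the ones to read each list below against, and no list was tested against them. Of the 115, 4 passed the filter only through the higher group (PTGIS, PTGER3, PDE4B and LTC4S). The other 111 had a median log2 change of −0.23, against 0.04 over all genes. Changes of these genes are given on the log2 scale. Among 6 other genes on the list of prostanoid receptors, leaving out PTGER3 for that reason, 3 rose, 2 fell and 1 was not called. Those that rose include PTGFRN (0.33, adjusted p = 0.0153), a regulator of the prostaglandin F receptor and not itself a prostanoid receptor. PPARG, a nuclear receptor for prostaglandin J2 derivatives, was at 29.9, 30.8 and 31.7 CPM in siNOX4 normoxia and at 3.85, 4.07 and 5.09 CPM in siNOX4 hypoxia (log2 −2.84, SE 0.13, adjusted p = 5.9e-13). Its siControl normoxia libraries, at 28.2, 25.9 and 32 CPM, showed no split. The prostaglandin F receptor PTGFR fell from 31.3 to 11.3 CPM (−1.48, adjusted p = 5.5e-11), and the thromboxane receptor TBXA2R rose from 3.66 to 5.86 CPM (0.66, adjusted p = 0.00128).

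The other EP receptors, named after their values were seen, moved apart. PTGER1 (EP1) was at 0.318, 0.599 and 0.544 CPM in siNOX4 normoxia and at 1.49, 1.8 and 1.43 CPM in siNOX4 hypoxia (log2 1.67, SE 0.39, adjusted p = 8.0e-04). PTGER3 (EP3) was at 1.08, 2.26 and 1.51 CPM and at 0.257, 0.155 and 0.0509 CPM (log2 −3.35, SE 0.50, adjusted p = 7.0e-06). Both rest on low counts, and PTGER3 passed the filter only through siNOX4 normoxia, so the filter favoured its fall and its call carries no weight. In siControl normoxia PTGER3 showed the same split as PTGS2, with 11.7, 1.67 and 18 CPM in replicates 1, 2 and 3.

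Of 8 other terminal synthases tested, leaving out PTGIS, 2 rose and 3 fell. AKR1B1, an aldose reductase that also makes prostaglandin F2α, was at 489, 440 and 478 CPM in siNOX4 normoxia, 262, 290 and 269 CPM in siControl hypoxia and 181, 245 and 183 CPM in siNOX4 hypoxia. It fell with hypoxia (log2 −1.22, SE 0.09, adjusted p = 5.4e-10, or 0.0506 with siControl normoxia in the fit). In hypoxia the siNOX4 libraries all lay under the siControl libraries (log2 −0.43, 95% interval −0.62 to −0.24, adjusted p = 0.0702), which did not pass with edgeR but did with DESeq2 (adjusted p = 0.00314). Its siControl normoxia libraries stood at 4229, 533 and 3755 CPM. GSTM2 and GSTM3, glutathione transferases with close paralogs, fell by 1.31 (adjusted p = 2.3e-07) and by 0.39 (adjusted p = 9.1e-05).

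Of 13 tested genes that supply and remodel arachidonate, 9 fell (69.2%, against 34.6% of all genes) and 2 rose (15.4%, against 35.9%), with a median of −0.50. MBOAT2, a lysophospholipid acyltransferase, fell by 1.35 (115 to 45.7 CPM, adjusted p = 2.0e-12). The acyl-CoA synthetase ACSL3 fell by 1.00 (adjusted p = 2.2e-11), and the acyltransferase LPCAT1 fell by 0.79 (adjusted p = 5.7e-09). Of 14 phospholipases and other lipases tested, 4 rose and 6 fell. The diacylglycerol lipases went opposite ways, as DAGLA rose by 1.28 (9.84 to 24.1 CPM, adjusted p = 1.4e-09) while DAGLB fell by 0.93 (adjusted p = 1.0e-08), and PLCG1, a phospholipase C, fell by 0.42 (adjusted p = 7.7e-06).

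Of 10 genes of prostaglandin transport and breakdown tested, 2 rose and 5 fell. CYP4F11, a fatty acid hydroxylase, fell by 1.96 (63.1 to 16.3 CPM, adjusted p = 4.4e-13). The prostaglandin reductase PTGR1 fell by 0.73 (adjusted p = 3.7e-08), and the related reductase ZADH2 rose by 0.51 (adjusted p = 4.4e-05). In the lipoxygenase and leukotriene branch, leaving out LTC4S, 3 of 9 rose and 2 fell. LTA4H, which makes leukotriene B4, fell by 0.59 (adjusted p = 4.6e-08), GPX4, which reduces lipid peroxides, fell by 0.67 (adjusted p = 7.8e-08), and the lipoxygenase family member ALOXE3 rose by 1.15 from 3.19 to 7.13 CPM (adjusted p = 8.4e-06).

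Downstream of the receptors, and leaving out PDE4B, 14 of 23 genes of EP receptor and cyclic AMP signalling fell and 4 rose, where 34.6% of all genes fell and 35.9% rose. NR4A1, an orphan nuclear receptor induced by cyclic AMP, was at 308, 302 and 286 CPM in siNOX4 normoxia and at 72.5, 64.5 and 61.1 CPM in siNOX4 hypoxia (log2 −2.19, SE 0.07, adjusted p = 3.2e-15). RAPGEF3, the cyclic AMP sensor EPAC1, fell by 1.43 (adjusted p = 1.8e-12), and the CREB coactivator CRTC2 fell by 1.05 (adjusted p = 2.2e-11). Among factors that act on PTGS2 transcription or mRNA, 9 of 25 rose and 12 fell. ZFP36, which destabilises mRNAs with AU-rich elements, fell by 1.81 (125 to 36 CPM, adjusted p = 1.8e-11). HIF1A mRNA fell by 1.13 (2110 to 969 CPM, adjusted p = 2.1e-11), and JUN, an AP-1 subunit, rose by 0.96 (856 to 1676 CPM, adjusted p = 2.1e-10). EGR1, named after its values were seen because a match for its family stands in the PTGES window, was not called (log2 0.17, 95% interval −0.18 to 0.52, adjusted p = 0.373). Of 4 tested neighbours and relatives of the 9 genes, 2 rose and 2 fell, among them MGST1, a glutathione transferase of the same protein family as PTGES (−1.61, adjusted p = 1.7e-09).

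For siNOX4 in hypoxia none of the 115 genes was called by edgeR. An unadjusted p under 0.05 was found for 14 of them (12.2%, against 10.4% of all genes), and DESeq2 called 1, AKR1B1. For the 8 genes of the chain itself the same counts were 0, 1 (PTGES2) and 0. In that comparison the libraries of the 2 siRNAs did not overlap for 2 of the 9 genes (PTGES2 and PTGER2). The same held for 17 of 116 other pathway genes past the low-count filter over 12 libraries. The share over all genes was not counted, so nothing is read from these counts.

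**Figure D4:**
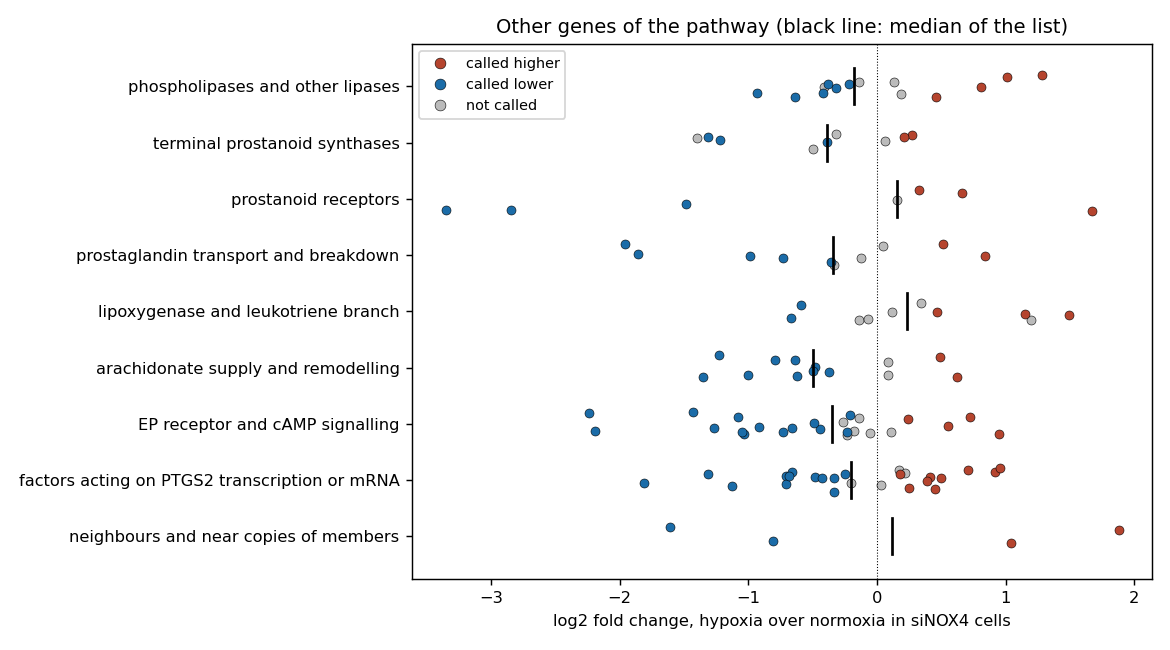
Log2 fold change of hypoxia over normoxia in siNOX4 cells for every tested gene of the other lists, in red for called higher, blue for called lower and grey for not called, with a black line at the median of each list. The list medians lie between −0.50 for arachidonate supply and 0.23 for the lipoxygenase branch.

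The genes most like PTGS2 over the 12 libraries were picked by Pearson's r of log2 CPM (prior count 2) among 10450 protein-coding genes with a mean of at least 5 CPM. This r is a description that rests on siControl normoxia replicates 1 and 3, which all 10 genes share. They were URGCP (0.9922), VEGFC (0.9908), PNRC2 (0.9903), UAP1L1 (0.9890), DHX37 (0.9866), PHF23 (0.9865), LMBRD2 (0.9863), SH3KBP1 (0.9857), HLTF (0.9852) and ARL14EPL (0.9851). VEGFC, a growth factor of lymphatic vessels, was at 218, 20.7 and 232 CPM in siControl normoxia replicates 1, 2 and 3 and reached at most 32 CPM elsewhere. SH3KBP1, an adaptor in receptor endocytosis, was at 1454, 172 and 1573 CPM and reached at most 211 CPM elsewhere. Of the prostaglandin genes HPGD was closest (r = 0.94), followed by PLA2G4A (0.62). PTGES3 ran the other way (r = −0.88), and the r of PTGES was −0.12.

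**Figure D5:**
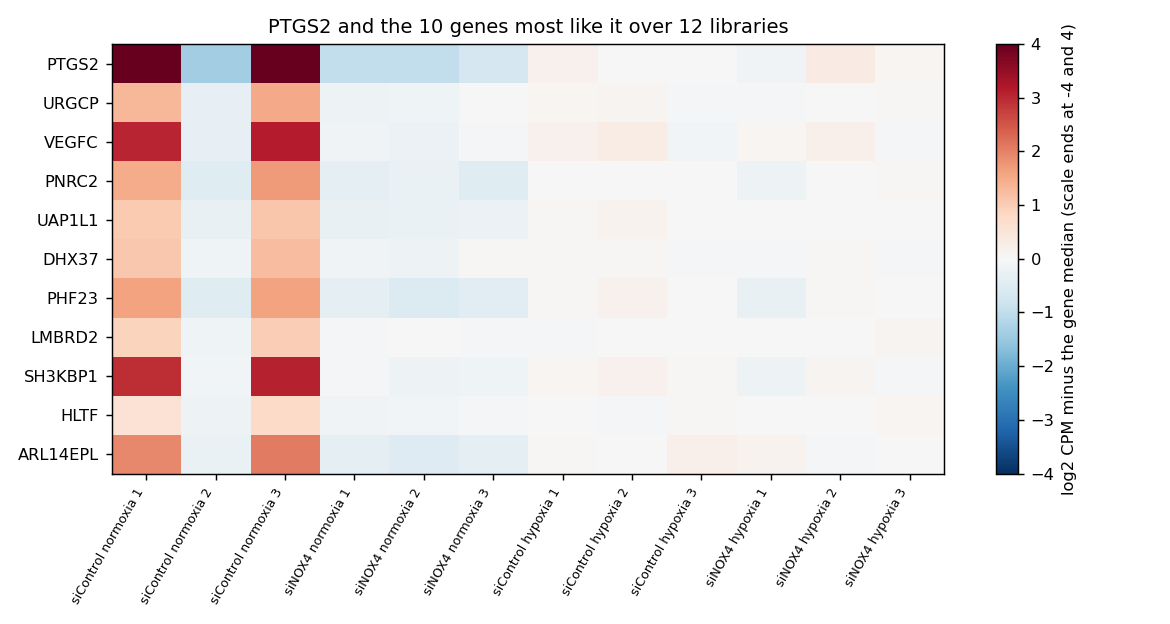
Log2 CPM minus the median of each gene over 12 libraries, for PTGS2 and the 10 genes most like it, with the colour scale ending at −4 and 4. siControl normoxia replicates 1 and 3 are red for every gene, and PTGS2 goes past the end of the scale there.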

How the data were processed

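Total RNA of BCPAP cells was sequenced from Illumina TruSeq libraries, per the labels. Raw counts of each gene were deposited for every library, as the columns are named per the file headers. Beside them stand the authors' FPKM values, their group means of scaled values, which were not used, and their deposited log2 fold changes and p-values for 4 comparisons. Bowtie 0.12.2 and the mouse builds mm8 and mm9 are listed in the submitters' processing notes, with no role. Gene identifiers, starts and ends match GENCODE 29 (GRCh38) for all 58735 genes. Neither counter nor test is named there.

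The genes, lists and tests were chosen with earlier results of these data known. Levels are CPM after TMM scaling over 12 libraries. Tests used edgeR 4.0.16 in R 4.3.3, with the quasi-likelihood F test on 9 libraries (without siControl normoxia), 1 mean per group, TMM factors of 0.889 to 1.08 and filterByExpr, which left 16907 genes. There were 6 residual and 13.3 prior degrees of freedom per gene, and the common biological coefficient of variation was 0.0714. Calls needed an adjusted p (Benjamini-Hochberg, over all genes tested) under 0.05. Intervals of fold changes are 95% intervals from the moderated standard error. Filtering over 12 libraries kept 17277 genes.

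Named were the 9 genes, NOX4, the 10 genes most like PTGS2, and per other list up to 3 called genes by smallest p without overlap of libraries, the higher group averaging 5 CPM or more. Cell type markers came from a list, and other genes were named after their values were seen. Alternatives were other scalings, filters, library sets and left-out libraries, a replicate block, DESeq2 1.42.0, limma-voom (limma 3.58.1) and limma-trend on the log2 of FPKM plus 1 or 0.1. Promoter windows are from RefSeq (GRCh38.p14).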

Additional observations from a re-analysis of the deposited data

How the results depend on the processing

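For hypoxia in siNOX4 cells all 8 tested genes were called under every alternative that tested them, except for PTGS2 and PTGES3 with all 12 libraries (0.97, adjusted p = 0.468, and −0.36, adjusted p = 0.0618). Requiring 5 CPM in 3 libraries left 5 of the 8 to test and call. The calls of PLA2G4A carry no weight here, since it passed the main low-count filter only through siNOX4 normoxia, where it was higher. AKR1B1 was also lost with all 12 libraries (−1.21, adjusted p = 0.0506). Upper-quartile scaling moved the median of all genes from 0.04 to 0.13. For siNOX4 in hypoxia none of the 8 was called under any alternative. Other pathway genes called there numbered 4 without a filter (AKR1B1, GPX4 and FADS2 lower, SIK1 higher), 1 with DESeq2 and 0 to 1 with a library left out (AKR1B1 without siNOX4 hypoxia replicate 2). Signs of uncalled differences turned for PTGS2, PTGES3 and PTGER4, with ranges given over all alternatives that tested the gene. PTGS2 was at −0.08 without siNOX4 hypoxia replicate 2 (range −0.08 to 0.15). PTGES3 was at 0.01 without siNOX4 hypoxia replicate 1 (range −0.10 to 0.01). PTGER4 was at 0.12 without siControl hypoxia replicate 3 and at 0.01 without siNOX4 hypoxia replicate 2 (range −0.42 to 0.12). Over all genes that comparison called 17, but 0 with all 12 libraries, 8 with only the 2 groups, 179 without a filter, 70 with DESeq2, 27 without siControl normoxia replicates 1 and 3 among all libraries, 5 and 7 on log2 FPKM and 2 to 29 with a library left out (2 without siControl hypoxia replicate 1 or 2). The PTGS2 ratios to siControl normoxia turned to 0.51 (siNOX4) and 1.44 (hypoxia) without replicates 1 and 3. Levels by other scalings and FPKM were added after the data were seen. Deviations of same-numbered samples from their group means were weakly correlated in the tested comparisons (−0.066 to 0.139). siControl normoxia was not part of these, and whether same-numbered samples were prepared together was not tested. A replicate block called 8 and 0 of the 8 genes, 88 and 0 of the other pathway genes and 11868 and 19 of all genes for hypoxia and siNOX4. Low counts limit HPGD, PLA2G4A in hypoxia and NOX4.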
